A study of Mus musculus with 10 samples.

Results

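The 10 genes described here encode the parts of the inflammasome and the interleukin 1 family cytokines that leave a macrophage through it. They are the sensors Nlrp3 and Aim2, the adaptor Pycard, the caspases Casp1 and Casp4, the pore protein Gsdmd, the cytokines Il1a, Il1b and Il18, and the receptor antagonist Il1rn. They were chosen by name, and all 10 were found by Entrez identifier among 36528 gene identifiers. All 10 passed the filter on low counts, which left 13588 genes for testing. The macrophages were purified from MC-38 tumours in C57Bl/6 mice. MC-38 is a mouse colon carcinoma line, so every library came from a tumour-bearing animal. One group of 5 libraries followed an antibody against MerTK, a receptor through which macrophages bind apoptotic cells, and the other 5 followed an antibody against gp120, an HIV envelope protein that serves as the control target. RNA was taken 24 h after treatment. The sources used here give no dose, no age of the mice and no number of tumours per library. Nothing says that the libraries came from separate animals, so the p-values measure the spread among the libraries, part of which may be technical.

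An inflammasome is a complex that forms in the cytosol when a sensor such as NLRP3 or AIM2 meets a danger signal. The sensor recruits ASC, the product of Pycard, which gathers and activates caspase-1. Caspase-1 cuts the precursors of interleukin 1 beta and interleukin 18 and opens gasdermin D, the pore through which they leave the cell, while caspase-11, the product of mouse Casp4, senses cytosolic lipopolysaccharide and also cuts gasdermin D. In tumour macrophages interleukin 1 beta is a well known inflammatory product. Transcript counts report on the supply of these parts and not on the cutting of the proteins.

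The libraries held 33159858 to 46108687 counted reads. Macrophage markers (9 genes, such as Csf1r and C1qa) summed to 28591 to 38816 CPM in control libraries and 30511 to 36852 CPM after anti-MerTK, where CPM is the count per 1e6 reads of a library's normalised size. The markers of T and NK cells summed to at most 3.16 CPM in any library, and those of neutrophils to 60.6 to 104 CPM in controls and 65.2 to 88.1 CPM after anti-MerTK. Most of the neutrophil sum was Csf3r (57.6 to 103 CPM over all libraries), while Mmp8 reached 4.10 CPM, S100a8 reached 1.62 CPM, and Camp and Ly6g were at 0 in at least 5 of 10 libraries. Monocyte markers differed more: all 8 had a positive estimate after anti-MerTK, 1 of them passed the test (Plac8), and their sum ran from 161 to 457 CPM in controls and from 383 to 645 CPM after anti-MerTK. Dendritic cell markers summed to 24.6 to 63.6 CPM in controls and 48.3 to 91.7 CPM after anti-MerTK, with 0 of 4 tested passing. No tested B cell, fibroblast or endothelial marker passed. Their sums reached 40.2, 29.6 and 131 CPM in controls and 30.5, 41.6 and 119 CPM after anti-MerTK. Anti-MerTK replicate 5 held 28.3 CPM of Ccr7 and 19.5 CPM of Col1a1, where other libraries held at most 7.94 and 2.54 CPM. Xcr1 was lowest there, at 11.3 CPM, and Col3a1, at 13.8 CPM, lay within the control range. Cdh1, the 1 tested gene of 5 epithelial markers, fell from 34.6 to 59.8 CPM in controls to 25.6 to 34.2 CPM (log2 fold change -0.72, edgeR adjusted p = 0.0244). The other epithelial markers were scarce in both groups, and Epcam and Krt19 were at 0 in at least 5 libraries. In controls and after anti-MerTK, Epcam reached 0.123 and 0.111 CPM and Krt18 0.144 and 0.117 CPM. Krt19 reached 0.0245 and 0.185 CPM and Krt8 1.32 and 1.56 CPM, so that both maxima were after anti-MerTK. Krt8 held 1.32 CPM in anti-gp120 replicate 1 and 1.27 and 1.56 CPM in anti-MerTK replicates 2 and 5. It held at most 0.0490 CPM in every other library. Of 11 immediate early genes, which respond to cell handling, 2 were higher (Dusp1 and Hspa1a), where 1.85% of all tested genes were. Of the 11, 10 had a positive estimate, with a median log2 fold change of 0.36. An unadjusted p under 0.05 in edgeR was reached by 7 of them, where 20.9% of all tested genes reached it. The sum of the 11 ran from 4183 to 6233 CPM in controls and from 5506 to 7464 CPM after anti-MerTK. The part of these lists in the results below was not tested. In bulk RNA, fewer cells of a type and less RNA per cell cannot be told apart. Mertk itself did not pass (log2 fold change -0.21, edgeR adjusted p = 0.263).

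These transcripts were present at very different levels. On the RPKM scale, which divides by gene length and so allows genes to be compared, Il1b led with a mean of 1207 over the 10 libraries (range 648 to 1682) and ranked 45th among 22023 genes with any signal. Il1rn followed at 217 RPKM (157 to 327). Pycard, Nlrp3, Casp1 and Gsdmd lay close together at 93.6, 89.9, 75.3 and 65.3 RPKM, and their ranges over libraries overlapped. Casp4 had 34.1 RPKM and Il1a 18.5 RPKM. Il18 and Aim2 were lowest, at 13.2 RPKM (9.47 to 16.8) and 6.81 RPKM (5.63 to 8.79). The precursor of interleukin 1 beta was thus among the most abundant messages of these macrophages, while its relative Il18 was a modest one.

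Blocking MerTK was followed by a rise in 1 of these 10 transcripts, Il18. In edgeR's quasi-likelihood test with Benjamini-Hochberg adjustment over all tested genes, 1 of 10 members passed at an adjusted p under 0.05, where 3.22% of all tested genes did. That member was higher, as were 1.85% of tested genes, and 0 of 10 were lower, where 1.38% were. DESeq2 and limma-voom also called 0 members lower. At an unadjusted p under 0.05 the members were 2, Il18 and Pycard, both with positive estimates, and 20.9% of all tested genes reached that level. The median log2 fold change of the 10 members was 0.16, beside -0.0059 over all tested genes, and 8 of 10 estimates were positive. In none of the 10 did the 2 groups of libraries separate without overlap, which 5.97% of all tested genes did. In the same fit 19 of 20 genes of a type I interferon list were higher, with a median log2 fold change of 1.24. That contrast between lists was not tested.

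**Figure D1:**
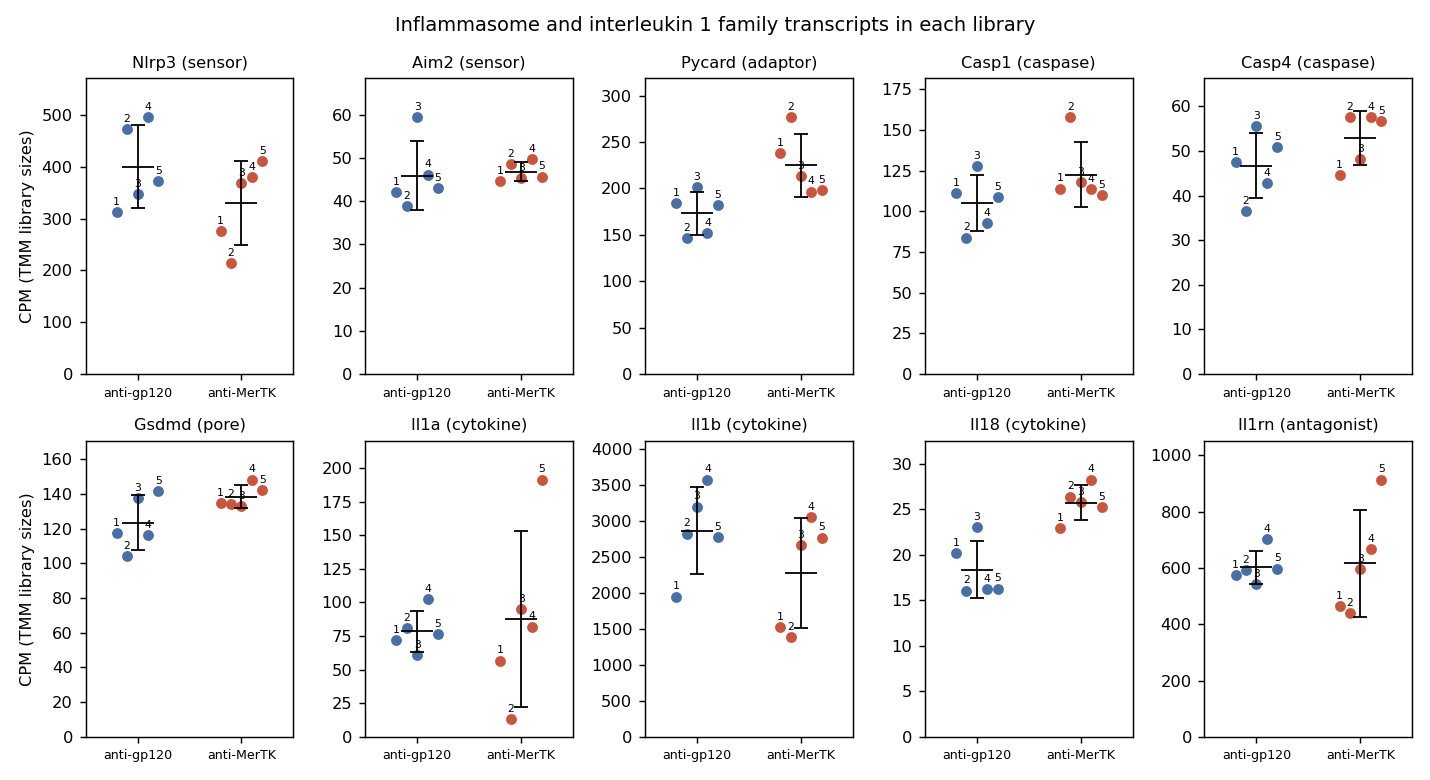
CPM of each member in each library (points, numbered by replicate), with the mean and SD over 5 libraries in black; every vertical axis is linear and starts at 0. For Il18, 4 of 5 anti-MerTK libraries lie above all anti-gp120 libraries, while Il1a spreads from 13.4 to 191 CPM within the anti-MerTK group.

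The sensors did not pass the test. Nlrp3, which responds to potassium loss and membrane damage (Entrez 216799, GRCm38 chromosome 11, 59541569 to 59566955), had 312, 473, 348, 496 and 372 CPM in anti-gp120 replicates 1 to 5 and 276, 215, 368, 380.4 and 411 CPM in anti-MerTK replicates 1 to 5. Anti-MerTK replicates 1 and 2 lay below every control library and the other 3 lay among them. Its log2 fold change was -0.28 (SE 0.18, edgeR adjusted p = 0.417), with an approximate 95% interval from 0.624-fold to 1.09-fold. It was -0.15 without anti-MerTK replicate 2 and -0.18 without anti-gp120 replicate 4. Aim2, a sensor of cytosolic double-stranded DNA of the PYHIN family (chromosome 1, 173349547 to 173466040), held 44.7 to 49.6 CPM after anti-MerTK, inside the 38.9 to 59.4 CPM of the controls. Its log2 fold change of 0.03 had an interval of 0.875-fold to 1.19-fold (edgeR adjusted p = 0.903). Aim2 is known as an interferon-induced gene in macrophages.

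Pycard came closest to the threshold after Il18. The adaptor (Entrez 66824, chromosome 7, 127991373 to 127993867) had 185, 147, 202, 152 and 182 CPM in the control libraries and 239, 277, 214, 197 and 198 CPM after anti-MerTK. All 5 anti-MerTK libraries were above the control mean and 3 were above every control library. The means were 173 ± 23.3 and 225 ± 33.7 CPM (SD, n = 5), a log2 fold change of 0.37 (SE 0.11, edgeR adjusted p = 0.0950). Pycard passed in limma-voom, in DESeq2 and with 1 surrogate variable (adjusted p = 0.0387, 0.0362 and 0.0313), where 3.76%, 4.63% and 3.36% of tested genes were called higher, and it did not pass in edgeR with any single library left out (adjusted p 0.0663 to 0.233).

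The effector caspases and the pore had small positive estimates that did not pass. Casp1, the central caspase of the inflammasome (chromosome 9, 5298517 to 5307281), had 111, 83.9, 128, 92.6 and 109 CPM in controls and 114, 158, 118, 114 and 109.8 CPM after anti-MerTK. Its highest value was that of anti-MerTK replicate 2, and the other 4 treated libraries lay within the control range (log2 fold change 0.22, SE 0.13, edgeR adjusted p = 0.332). Casp4 starts 1568 bases beyond the end of Casp1 on the same chromosome and is its close relative. It ranged from 36.6 to 55.6 CPM in controls and from 44.6 to 57.6 CPM after anti-MerTK (log2 fold change 0.18, SE 0.11, edgeR adjusted p = 0.383). Gsdmd (chromosome 15, 75862144 to 75867408) ranged from 104 to 142 CPM in controls and from 133 to 148 CPM after anti-MerTK. All 5 treated libraries of Gsdmd were above the control mean and 2 were above every control, with a log2 fold change of 0.16 (SE 0.09, edgeR adjusted p = 0.287). The intervals of Casp1, Casp4 and Gsdmd ended at 1.41-fold, 1.34-fold and 1.27-fold, so larger rises lay outside them. The estimates leaned on single libraries: Casp1 was 0.12 without anti-MerTK replicate 2 and 0.15 without anti-gp120 replicate 2, and without the latter Casp4 was 0.10 and Gsdmd 0.11.

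Il18, whose product drives interferon gamma production by T and NK cells, was the member that rose. The gene (Entrez 16173, chromosome 9, 50554700 to 50581841) gave 20.2, 16.1, 23.04, 16.2 and 16.3 CPM after anti-gp120 and 22.96, 26.4, 25.8, 28.2 and 25.2 CPM after anti-MerTK. Only anti-MerTK replicate 1 fell below a control library, and only below anti-gp120 replicate 3. The means were 18.3 ± 3.14 and 25.7 ± 1.92 CPM (SD, n = 5), a 1.40-fold rise (log2 fold change 0.49, SE 0.11, approximate 95% interval 1.19-fold to 1.65-fold, edgeR adjusted p = 0.0331). The rise rested on 598 to 1246 reads per library. The size of the rise changed little when a library was left out (log2 fold change 0.44 to 0.59), but the adjusted p exceeded the threshold when anti-gp120 replicate 2, 4 or 5 was absent (0.0913, 0.102, 0.0543) and when anti-MerTK replicate 1, 2, 3 or 4 was absent (0.0606, 0.0774, 0.0864, 0.0687). The 5' end of Il18 shares 515 bases with Bco2, which lies on the other strand and held 237 to 415 reads per library, and no source used here gives the strand setting of the counting, so reads of that stretch cannot be assigned.

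The 250 bases before the RefSeq start of Il18 are shown because this is the member that rose. They lie at chr9:50554450-50554699 on the plus strand of GRCm38.p6, and capitals mark the letters TATAAA found on the minus strand.
Il18: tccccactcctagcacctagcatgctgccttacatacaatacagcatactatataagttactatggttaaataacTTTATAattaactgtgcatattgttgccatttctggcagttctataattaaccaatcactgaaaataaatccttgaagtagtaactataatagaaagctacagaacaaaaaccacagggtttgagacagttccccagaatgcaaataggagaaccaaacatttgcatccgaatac
RefSeq windows were held for 9 of the 10 members, 13 windows in all, and both strands were searched. A core of the interferon-stimulated response element was in none of the 13, and 2.98% of all 32851 promoter windows of this length hold it. The letters TTCNNNGAA, the core bound by STAT dimers, were also in none, and 7.02% of all windows hold them. GENCODE M21 places the start of Il18 at 50554827, so the window depends on the annotation.

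Il1b, the most abundant member, did not pass. The gene (Entrez 16176, chromosome 2, 129364569 to 129371164) gave 1946, 2819.5, 3197, 3569 and 2775 CPM after anti-gp120 and 1522, 1382, 2660.1, 3053 and 2766 CPM after anti-MerTK. Anti-MerTK replicates 1 and 2 lay below every control, and the remaining 3 lay inside the control range. The log2 fold change was -0.33 (SE 0.24, edgeR adjusted p = 0.452), with an interval from 0.556-fold to 1.14-fold. It was -0.22 when anti-MerTK replicate 1 was left out, and -0.19 when replicate 2 of that group was. Il1bos, an RNA on the opposite strand of this locus, held at most 132 reads against at least 44794 for Il1b.

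Il1a encodes a cytokine that is active without being cut and is released from damaged cells. Its locus ends 54383 bases from Il1b, and both lie on chromosome 2. Il1a had 71.9, 81.1, 60.97, 102 and 76.5 CPM in controls and 56.6, 13.4, 94.9, 81.96 and 191 CPM after anti-MerTK. The lowest and the highest of the 10 libraries were both in the anti-MerTK group, 14.3-fold apart, while the controls spanned 1.68-fold. The log2 fold change of 0.16 had an SE of 0.50 (edgeR adjusted p = 0.886) and an interval from 0.519-fold to 2.40-fold. Without anti-MerTK replicate 5 it was -0.35, and without anti-MerTK replicate 2 it was 0.44. Gm14023, a transcript on the other strand that overlaps Il1a, held 89 to 1213 reads where Il1a held 434 to 6863, and without strand their reads cannot be told apart.

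Il1rn, the antagonist that occupies the interleukin 1 receptor without signalling, had 574, 593, 543, 702 and 597 CPM in controls and 465, 440.2, 596, 666 and 913 CPM after anti-MerTK. Its control libraries spanned 1.29-fold and its anti-MerTK libraries 2.07-fold, with replicates 1 and 2 below and replicate 5 above all controls. The log2 fold change was 0.03 (SE 0.18, edgeR adjusted p = 0.935), with an interval from 0.784-fold to 1.34-fold.

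**Figure D2:**
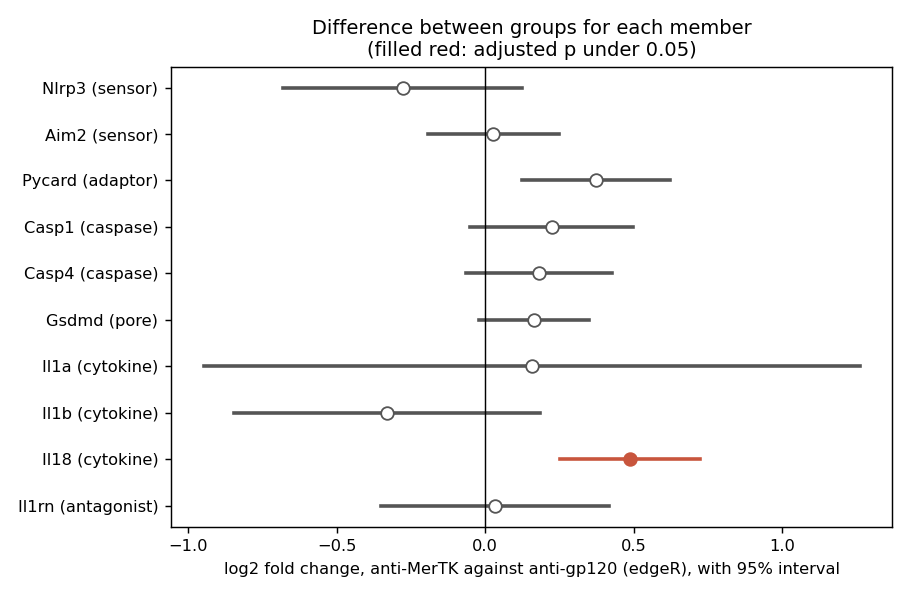
Log2 fold change of each member in edgeR (circles), anti-MerTK against anti-gp120, with its approximate 95% interval (lines). Il18 at 0.49 is the filled circle that passed the test, and Il1a has the widest interval, from -0.95 to 1.26.

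A cytokine acts against the amount of its antagonist, so 3 ratios of RPKM were compared within libraries, where the library's scaling cancels. The ratio of Il1b to Il1rn was 4.47, 6.27, 7.76, 6.71 and 6.13 after anti-gp120 and 4.31, 4.14, 5.89, 6.05 and 3.99 after anti-MerTK. All 5 treated libraries were below the control mean and 3 were below every control, a difference of -0.36 in log2 ratio (two-sided exact permutation p = 0.0556, 0.0833 adjusted over the 3 ratios). In the 8 libraries without anti-MerTK replicates 2 and 5 the difference was -0.20. The ratio of Il18 to Il18bp, the secreted protein that neutralises interleukin 18, was 0.121, 0.168, 0.126, 0.105 and 0.0661 in controls and 0.150, 0.143, 0.182, 0.161 and 0.153 after anti-MerTK. It was above the control mean in 5 of 5 treated libraries, by 0.48 in log2 ratio (exact permutation p = 0.0397, adjusted 0.0833), and the adjusted p passed in 1 of 10 comparisons with a library left out (0.0238, without anti-gp120 replicate 2) and reached 0.202 in others. Without anti-gp120 replicate 5, the lowest ratio, the difference was 0.29 (adjusted p = 0.190). Il18bp itself spread from 180.1 to 465 CPM among controls and from 268 to 349 CPM after anti-MerTK (log2 fold change -0.04, edgeR adjusted p = 0.925). The ratio of Il1a to Il1rn differed by -0.25 (exact permutation p = 0.841, adjusted 0.841). The smallest p that 5 against 5 libraries allow is 0.00794, and none of the 3 ratios passed after adjustment in all 10 libraries.

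**Figure D3:**
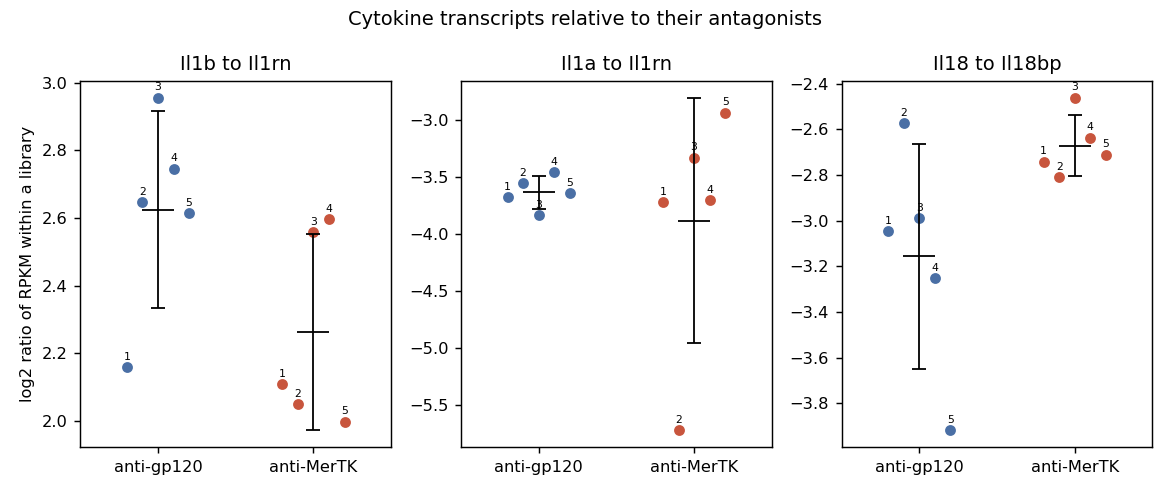
Log2 ratio of RPKM within each library (points, numbered by replicate), with the mean and SD over 5 libraries in black; the vertical axes differ and do not start at 0. The Il1b to Il1rn ratio averages 2.62 after anti-gp120 and 2.26 after anti-MerTK, and the groups overlap in all 3 panels.

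Apart from treatment, the members fell into opposed patterns across libraries. Each library's log2 CPM was taken relative to its own group's mean, and the 45 pairs of members were correlated over the 10 libraries with exact permutation within groups (14400 orders). After adjustment over 45 pairs 8 passed, 4 with a positive and 4 with a negative r, and 17 had an unadjusted p under 0.05. The share of pairs of other genes that would pass was not computed. The 8 are therefore a description and are not shown to be particular to these members. Nlrp3 went with Il1a, Il1b and Il1rn, all genes that inflammatory signals are known to induce in macrophages. Pycard went with Casp1, and both ran opposite to Nlrp3 and Il1a.

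Nlrp3 and Pycard were the most opposed pair (Pearson r = -0.94, exact permutation p = 0.00188, Spearman rho = -0.85, p = 0.00597, adjusted p = 0.0258 and 0.0384). Pycard and Casp1 went together (r = 0.93, exact permutation p = 0.00125, rho = 0.93, p = 0.00160, adjusted p = 0.0258 and 0.0344). So did Nlrp3 and Il1a (r = 0.84, exact permutation p = 0.000903, rho = 0.87, p = 0.00319, adjusted p = 0.0258 and 0.0350). Without the 2 libraries farthest from the median of the first gene these 3 values of r were -0.94, 0.82 and 0.79. Anti-MerTK replicate 5, with Il1a 1.56 above its group's mean log2 CPM, stayed in for Nlrp3, Pycard and Casp1 with Il1a. Those values of r therefore still hold an extreme library of Il1a.

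Of the other 5 pairs, Nlrp3 with Il1b (r = 0.87, exact permutation p = 0.00528, rho = 0.84, p = 0.00590) and with Il1rn (r = 0.82, p = 0.00576, rho = 0.89, p = 0.00229) kept r of 0.70 and 0.80 without 2 libraries. Nlrp3 with Casp1 (r = -0.83, exact permutation p = 0.00847, rho = -0.85, p = 0.00389) kept -0.68, and Pycard with Il1a (r = -0.77, p = 0.00229, rho = -0.76, p = 0.0124) kept -0.71. Casp1 with Il1a (r = -0.72, exact permutation p = 0.00542, rho = -0.71, p = 0.0123) fell to -0.27 and rests on the libraries left out. The adjusted p of these 5 lay between 0.0258 and 0.0477 for r and between 0.0344 and 0.0559 for rho.

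The pattern leaned on several libraries. Anti-MerTK replicate 2, with Il1a 2.27 below and Pycard 0.31 above its group's mean log2 CPM, was the strongest case, and it held the fewest reads of the 10. No pair passed without it, nor without anti-MerTK replicate 5 or anti-gp120 replicate 5. Without anti-MerTK replicate 1 it was 1 pair, without anti-gp120 replicate 3 it was 3, without anti-MerTK replicate 4 it was 4, and without anti-gp120 replicate 1, anti-gp120 replicate 4 or anti-MerTK replicate 3 it was 5. All values of a library share its normalisation and depth, and the labels give no batch by which to split them. Il18 passed with none of the other members: its largest r was 0.75, with Aim2 (exact permutation p = 0.0494, adjusted 0.131, rho = 0.52, p = 0.210), and it was 0.13 without 2 libraries.

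**Figure D4:**
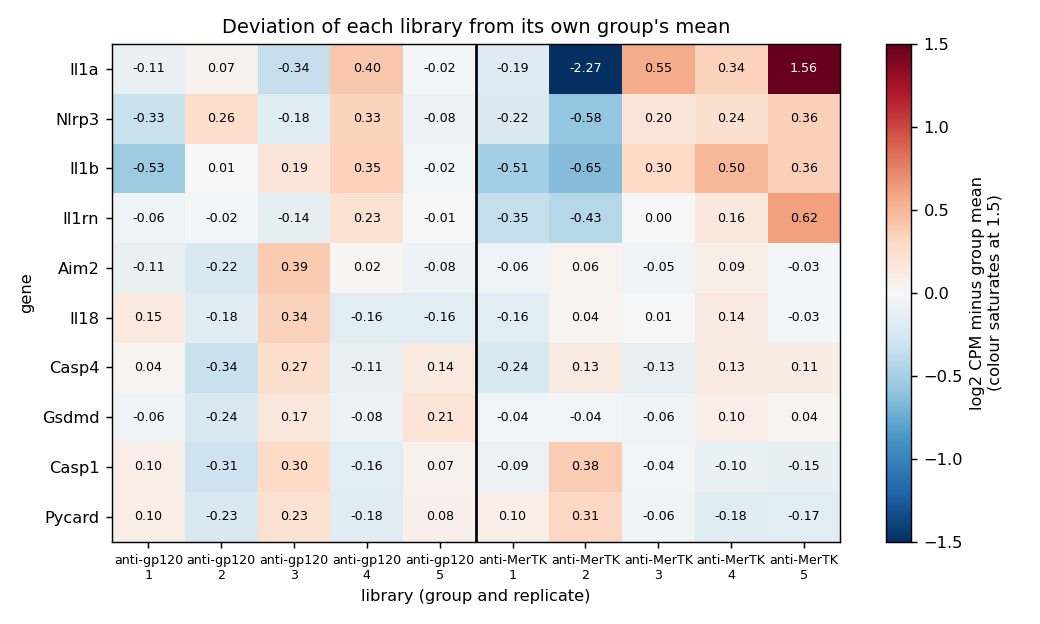
Log2 CPM of each member (rows) in each library (columns) minus the mean of that library's own group, printed in each cell; red is above and blue below the group mean, and the colour saturates at 1.5. In anti-MerTK replicate 2 Il1a stands at -2.27 and Nlrp3 at -0.58, while Pycard and Casp1 stand at 0.31 and 0.38.

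The 250 bases before a RefSeq start of Il1a, Il1b and Nlrp3 are shown because Nlrp3 varied with Il1a and with Il1b across libraries. Nlrp3 with Il18 did not pass (r = -0.33, exact permutation p = 0.337, adjusted 0.515). Il1a with Il1b did not pass either (r = 0.71, exact permutation p = 0.0228, adjusted 0.0911, rho = 0.78, p = 0.0310). Il1a lies at chr2:129309973-129310222 on the minus strand, Il1b at chr2:129371140-129371389 on the minus strand and Nlrp3 at chr11:59541319-59541568 on the plus strand (GRCm38.p6, each printed in the direction of transcription). Nlrp3 has a second RefSeq window, at chr11:59542436-59542685, which held none of the motifs searched and is not printed. The bases just after that second window were found in a GENCODE M21 transcript of Nlrp3. Those just after the printed window were not, although GENCODE M21 places the start of the gene there, at 59541568. Capitals mark TATAAA in Il1a and Il1b, the AP-1 letters TGANTCA in Il1a and an NF-kB motif found on the minus strand in Nlrp3.
Il1a: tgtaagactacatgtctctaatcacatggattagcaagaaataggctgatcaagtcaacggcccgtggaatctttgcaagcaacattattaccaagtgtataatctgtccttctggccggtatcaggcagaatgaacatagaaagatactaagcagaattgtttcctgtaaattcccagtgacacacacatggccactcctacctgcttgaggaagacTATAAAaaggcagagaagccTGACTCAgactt
Il1b: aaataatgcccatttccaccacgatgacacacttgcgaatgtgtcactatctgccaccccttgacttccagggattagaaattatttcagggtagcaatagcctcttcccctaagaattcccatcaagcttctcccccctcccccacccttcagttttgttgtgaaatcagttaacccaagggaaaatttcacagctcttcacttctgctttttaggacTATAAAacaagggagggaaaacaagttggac
Nlrp3: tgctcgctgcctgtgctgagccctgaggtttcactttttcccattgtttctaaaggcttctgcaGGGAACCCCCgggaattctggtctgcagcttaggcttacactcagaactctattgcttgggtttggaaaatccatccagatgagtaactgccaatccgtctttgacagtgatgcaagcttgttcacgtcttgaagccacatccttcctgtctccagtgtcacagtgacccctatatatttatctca
The TATAAA letters begin 32 bases before the start used for Il1a and 31 before that used for Il1b, and 12.4% of all windows hold them on either strand. These starts match the ends of both genes in GENCODE M21 (129309972 and 129371139). The RefSeq spans given for the genes reach further, to 129310186 and 129371164, inside the printed windows. Both windows and both distances therefore depend on the annotation. The AP-1 letters, held by 6.75% of windows, were also in the first Il1rn window. The NF-kB motif, held by 3.90% of windows, was also in both Casp4 windows. Those windows overlap and hold the same stretch, in which 2 matches overlap, so they count as a single site.

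The wider pathway was read from 54 further genes, of which 53 were matched and 44 tested. In edgeR 0 rose, where 1.85% of all tested genes did, and 1 fell, where 1.38% did. An unadjusted p under 0.05 was reached by 6 of the 44, where 20.9% of all tested genes reached it. The median log2 fold change was -0.06, beside -0.0059 over all tested genes. The gene that fell was Map3k7, which encodes TAK1, a kinase downstream of the interleukin 1 and Toll-like receptors. Map3k7 had 44.2, 53.2, 48.2, 57.7 and 45.001 CPM after anti-gp120 and 40.1, 36.8, 38.9, 40.6 and 41.9 CPM after anti-MerTK, so that every treated library lay below every control. Groups without overlap were found for 5.97% of all tested genes, and in this list also for Naip1, in the other direction. For Map3k7 the fit gave the following values. Its log2 fold change was -0.32 (SE 0.08, edgeR adjusted p = 0.0488). It missed the threshold with RLE size factors, the authors' size factors or no filter (adjusted p = 0.0506, 0.0501 and 0.0523), without anti-gp120 replicate 2, 3 or 4 (0.120, 0.0710, 0.126) and without anti-MerTK replicate 1, 2, 3 or 4 (0.107, 0.121, 0.122, 0.0774), and in the 8 libraries without anti-MerTK replicates 2 and 5 (0.138).

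Among other sensors 0 of 11 tested passed. Naip2, which recognises the rod of bacterial secretion systems and acts with Nlrc4, had 197 to 223 CPM in controls and 164 to 203 CPM after anti-MerTK (log2 fold change -0.18, SE 0.07, edgeR adjusted p = 0.170). Naip1 was barely expressed, at 0.244 to 0.604 CPM and 0.612 to 1.35 CPM, with a log2 fold change of 1.10 (SE 0.32, edgeR adjusted p = 0.0855). It passed in DESeq2 (adjusted p = 0.0288) and with 1 surrogate variable (0.0478). The Naip genes are near-identical copies, so reads could be lost or split between them.

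Of 10 activators and adaptors 0 passed. P2rx7, the ATP-gated channel that triggers NLRP3, had 123 ± 9.09 and 106 ± 7.25 CPM (SD, n = 5, log2 fold change -0.22, SE 0.07, edgeR adjusted p = 0.110). Pstpip1, a partner of pyrin, had a log2 fold change of 0.25 (edgeR adjusted p = 0.290), or 0.15 without anti-MerTK replicate 2. Of 7 genes of other caspases, pores and membrane rupture 0 passed. Casp12 and Casp8 had log2 fold changes of -0.21 and 0.11 (edgeR adjusted p = 0.263 and 0.357), and Casp8 was 0.068 without anti-MerTK replicate 5.

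Of the receptors for these cytokines, Il1r1 and Il18r1 were scarce in the macrophages themselves, while others were not. Il1r1, the signalling receptor of interleukin 1, had at most 19 reads in a library (0.0617 to 0.456 CPM), and Il18r1, that of interleukin 18, had at most 6 reads. Both were left out by the filter. The decoy receptor Il1r2 had more, at 18.5 to 34.9 CPM in controls and 3.46 to 36.4 CPM after anti-MerTK, with its lowest value in anti-MerTK replicate 2. Il1r1, Il18r1, Il1r2, Il36a, Il36b and Il33 fall outside the rule for named genes and were picked once their values were known. Of 7 receptors and decoys tested 0 passed. Il1rap, the shared accessory chain, had 16.9 to 26.2 CPM in controls and 18.2 to 20.1 CPM after anti-MerTK. Il1rap and Il18rap had log2 fold changes of -0.19 and -0.54 (edgeR adjusted p = 0.284 and 0.340). Il18rap was -0.22 without anti-gp120 replicate 1, and Il1rap was -0.13 without anti-gp120 replicate 2. The other ligands of the family were near or at 0: Il36a and Il36b had no read in any library, and Il33 had at most 13.

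In receptor signalling, beside Map3k7, 8 tested genes did not pass. Myd88, the adaptor of interleukin 1 and Toll-like receptors, averaged 172 ± 23.5 CPM in controls and 210.4 ± 18.6 CPM in treated libraries (SD, n = 5). The estimate was 0.29 in log2 fold change (SE 0.10, edgeR adjusted p = 0.118). Myd88 passed in limma-voom (adjusted p = 0.0442) and with 1 surrogate variable (0.0164). The kinase Irak2 had a log2 fold change of 0.17 (SE 0.08, edgeR adjusted p = 0.271).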

How the data were processed

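Polyadenylated RNA of 10 libraries was sequenced, 5 per antibody. The authors aligned reads with GSNAP to GRCm38, per the submitters' processing notes. The deposited counts are reads aligning uniquely to each gene model, and the deposited RPKM values carry the authors' size factor of each library, per the file headers. No source used here gives the aligner's version, the annotation or the strand setting. RPKM served for levels, ratios and the recovery of the authors' size factors.

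Genes were named from RefSeq's GRCm38.p6 table (31049) and GENCODE M21 (78), and 5401 unnamed genes, with 2.14% to 2.65% of counts, stayed in the fit. After filterByExpr, counts were scaled by TMM and tested by quasi-likelihood F-test in edgeR 4.0.16 (with limma 3.58.1 under R 4.3.3). The model held only the antibody, and p-values were adjusted by Benjamini-Hochberg, with a threshold of 0.05. The SE is the log2 fold change divided by the square root of F, and intervals are approximate. On simulated counts for the 13588 genes, 97% of genes changed 2-fold and 69% of those changed 1.5-fold were recovered, with 5.67% false calls. The changed genes were drawn only from those above a minimum mean level, so the rates do not cover genes as low as Naip1. They are averages and do not hold for single genes of wide spread, such as Il1a. No 2 libraries agreed within sampling noise (smallest chi-square per degree of freedom 27.2). Replicate numbers follow deposition order and pair nothing. Correlations used log2 CPM with a prior count of 2, and exact permutation tests were two-sided.

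The 10 members and all lists were chosen with earlier results of these data known. Named genes are the members, called pathway genes, the 2 of smallest p per role and Il18bp, beside those said to be chosen later. Alternatives were other normalizations, filters and tools (DESeq2 1.42.0, limma-voom, sva 3.50.0), leaving out each library, and 8 libraries without anti-MerTK replicates 2 and 5, which stood apart earlier.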

Additional observations from a re-analysis of the deposited data

Results flagged for a closer look

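In 48 sets of 5 libraries (the members, the ratios and the named pathway genes in each group) 3 held a library whose gap to the next exceeded Dixon's 95% critical value, which chance gives in about 1 of 20 such sets. Casp1 in anti-MerTK replicate 2 had 158 CPM, where the other 4 libraries of the group had 109.8 to 118 CPM. The log2 ratio of Il1a to Il1rn in the same library was -5.72, where the others had -3.72 to -2.94. Irak2 in anti-MerTK replicate 5 had 87.7 CPM, where the others had 73.4 to 77.4 CPM.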

How the results depend on the processing

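Members called higher numbered 2 with DESeq2, limma-voom or 1 surrogate variable, 0 in 8 libraries, 0 at an adjusted p under 0.01, and 0 to 1 with a library left out. Pathway genes called higher numbered 1 with DESeq2, 1 with limma-voom and 2 with the surrogate variable. Pathway genes called lower numbered 0 in 8 libraries, with RLE or the authors' size factors, without the filter and at 0.01, and 0 to 1 with a library left out. Over all genes, 585 were higher and 552 lower with DESeq2, 511 and 496 with limma-voom, 457 and 375 with the surrogate variable, 152 and 52 in 8 libraries, and 13 and 2 at 0.01; with a library left out, 55 to 370 were higher and 15 to 284 lower. Pycard had a log2 fold change of 0.38 with the surrogate variable or DESeq2 and 0.40 with limma-voom. Il18 had 0.49 in 8 libraries (adjusted p = 0.0982) and 0.44 to 0.59 with a library left out; its adjusted p passed in 8 of 9 other settings and in 3 of 10 fits without a library. Estimates near 0 changed sign: Il1a was -0.18 with the surrogate variable, -0.0135 in 8 libraries, -0.25 with limma-voom and -0.35 to 0.44 with a library left out; Il1rn was -0.0054, -0.0641, -0.0810 and -0.15 to 0.13; and Aim2 was -0.0307 to 0.14 with a library left out. The log2 ratio of Il1a to Il1rn was 0.0495 in 8 libraries and -0.48 to 0.21 with a library left out, and that of Il18 to Il18bp was 0.29 to 0.63. Pairs that varied together numbered 0 in 8 libraries and 0 to 8 with a library left out, a setting added after seeing the data. The causes were not tested. No paired analysis was possible because the labels give no replicate numbers.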

Other observations

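Among 9453 named genes with a mean of at least 5 CPM, those most like Il1b across the 10 libraries, after removing group means, were Ccrl2 (r = 0.98), a chemerin-binding receptor, Med29 (0.98) and Slc3a2 (0.97), an amino acid transporter chain. Those most like Nlrp3 were Tbc1d16 (0.99), Plxnc1 (0.98), a semaphorin receptor, and Pvr (0.98), a ligand of the lymphocyte receptors TIGIT and DNAM-1. Those most like Il18 were Thg1l (0.96), Gmps (0.95) and Thoc7 (0.94). None of the 9 passed the test of treatment in edgeR (adjusted p 0.136 to 0.966). These are the highest of many correlations over 10 libraries that share depth and normalisation, and are given as a description.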
